A study of Mus musculus with 4 samples.

Results

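The genes described here are the nuclear genes of mitochondrial oxidative phosphorylation, taken by their symbols in the array annotation: every symbol beginning with Nduf, Sdha to Sdhd, Uqcr, Cox4i, Cox5, Cox6, Cox7, Cox8 or Atp5, without pseudogenes. Of 22180 genes that the array names by 1 symbol, 91 belong to this set. The brightest probe set stood for each gene, and 61 of the 91 had a log2 level of 6 or more on at least 1 array and were measured, among 5306 genes of all kinds that did so. The other 30 members did not reach that level on any array and are named below only where a family needs them. By complex, 27 of 34 members of complex I, 4 of 4 of complex II, 5 of 7 of complex III, 9 of 17 of complex IV and 11 of 17 of complex V were measured. The symbols also take in assembly factors, which build the complexes but are not part of them, and 5 of these 12 were measured.

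The study sorted macrophages from mouse liver 48 h after the blood flow had been restored, with 10 mice of the wild type (WT) and 10 given as mPGES-1-/-; mPGES-1 is the inducible prostaglandin E synthase, the product of Ptges. All mice are given as strain C57/BL6, and all livers had been reperfused, and no array of an unoperated liver is analysed here. The 4 groups were WT Ly6C-hi, WT Ly6C-low, mPGES-1 KO Ly6C-hi and mPGES-1 KO Ly6C-low, with 1 Affymetrix Mouse Gene 2.0 ST array each. The sources used here do not state how many mice stand behind an array, their age or the kind of knockout allele. With 1 array per group, differences between single arrays carry no error and no test.

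Oxidative phosphorylation passes electrons from NADH and succinate along the inner mitochondrial membrane to oxygen. Complexes I and II take the electrons in, complex III passes them to cytochrome c, and complex IV (cytochrome c oxidase) hands them to oxygen. Complexes I, III and IV pump protons, and complex V, the ATP synthase, lets the protons return while it makes ATP. Most subunits are encoded in the nucleus and a small core in mitochondrial DNA. Macrophages in an inflammatory state are known to lean on glycolysis, and macrophages in tissue repair on mitochondrial respiration.

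Promoters of these genes are known to hold sites of a few shared regulators, and 4 of them are shown because they carry, between them, the 4 motifs searched. For each motif the subunit with the largest WT difference between Ly6C-hi and Ly6C-low was taken among those with a match in the 150 bases printed and not yet shown for another motif. The sequences are from RefSeq on GRCm38.p6, each 150 bases, from 120 before to 30 after the annotated start, read 5′ to 3′ on the strand of the gene. Ndufb8, a complex I subunit, lies at chr19:44555413-44555562 on the minus strand, and Uqcr11, a complex III subunit, at chr10:80406792-80406941 on the minus strand. Ndufb5, of complex I, lies at chr3:32736943-32737092 on the plus strand, and Atp5k, of complex V, at chr5:108434370-108434519 on the minus strand. Capitals mark any match, on either strand, to the NRF1 motif GCGCATG, the ETS site CCGGAAG bound by factors such as GABP, the YY1 core ATGGCGG or the motif AAGGTCA of estrogen-related receptors.
Ndufb8: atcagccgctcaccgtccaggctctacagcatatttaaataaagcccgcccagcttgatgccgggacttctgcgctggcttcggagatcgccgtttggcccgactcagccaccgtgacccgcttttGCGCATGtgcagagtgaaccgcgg
Uqcr11: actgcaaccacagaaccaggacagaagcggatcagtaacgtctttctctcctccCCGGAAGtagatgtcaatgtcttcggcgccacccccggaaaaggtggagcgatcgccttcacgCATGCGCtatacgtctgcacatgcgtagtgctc
Ndufb5: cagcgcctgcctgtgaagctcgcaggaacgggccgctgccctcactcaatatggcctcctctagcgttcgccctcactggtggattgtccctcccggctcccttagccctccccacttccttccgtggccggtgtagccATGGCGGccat
Atp5k: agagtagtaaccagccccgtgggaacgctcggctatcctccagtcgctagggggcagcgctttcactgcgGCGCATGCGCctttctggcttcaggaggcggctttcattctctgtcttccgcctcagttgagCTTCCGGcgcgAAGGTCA

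In windows from 250 bases before to 50 after the start, 52 of the 61 measured members had a RefSeq promoter. The NRF1 motif was in 13 of these (25%), against 7.30% of the 4217 measured genes with a promoter and 4.03% of all 27025 genes in the table. The ETS site was in 17 (32.7%, against 18.5% and 9.14%), the YY1 core in 10 (19.2%, against 9.01% and 4.21%), and the estrogen-related receptor motif in 5 (9.62%, against 3.08% and 4.65%). In 19 windows none of the 4 was found, and 10 held at least 2 of them. A match is a string of letters in a window and no evidence of binding.

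All 4 arrays gave 3066 to 4171 genes at log2 6 or more. Of 7 macrophage markers, Csf1r, Cd68, Lyz2 and Itgam were at 8.04 or above on each array, Adgre1 and Fcgr1 ran down to 7.77 and 7.74, and Mertk was at 7.45 and 8.36 in WT Ly6C-hi and Ly6C-low and at 6.41 and 9.20 under the KO label. Ly6c2 followed the Ly6C gate (7.70 and 8.94 in the Ly6C-hi arrays, 3.84 and 4.33 in the Ly6C-low arrays). Under the KO label Ptges stood at 6.32 and 6.20, above its 5.65 and 5.69 in WT; the sources used here do not say whether its probes lie in the deleted part, so the genotype is used below as a label. Among the 5306 measured genes, the median gene was not level across the arrays. In deposited values, its Ly6C-hi minus Ly6C-low difference was 0.22 in WT but -0.31 under the KO label. KO label minus WT was -0.47 in Ly6C-hi and 0.12 in Ly6C-low. These shifts belong to the genes that reached log2 6 and not to the arrays as a whole. Over all probe sets, the array labelled KO Ly6C-hi had the highest median. Among the measured genes it had the lowest median deviation from the gene mean. Differences are therefore given with the arrays centred on the median gene of the measured set, and as deposited where the scale changes the picture. A gene is counted as higher or lower from 1.5-fold (0.58 on the log2 scale).

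In WT, most oxidative phosphorylation genes were lower in Ly6C-hi than in Ly6C-low macrophages. Centred, 56 of 61 lay below 0 and the median difference was -0.48, against -0.01 for all genes, and as deposited 48 lay below 0 with a median of -0.25, against 0.22 for all genes. At 1.5-fold, 20 members were lower (32.8%), where 23.4% of all genes were, and 3 were higher (4.92%), where 23.8% of all genes were. As deposited, 10 were lower (16.4%, with 15.1% of all genes) and 3 higher (4.92%, with 32.6% of all genes). The differences were small and close to each other: the middle 50% of members spanned 0.43, and that of all genes 1.09. The 3 members that were higher were all assembly factors. Of these, Ndufaf7 and Sdhaf2 reached log2 6 on WT Ly6C-hi only, so they were measured through the array where they were high. With a mean level of 6 or more, 1 member was higher, with 21.5% of all genes. Of the 56 subunits, 54 were below 0 when centred and none was 1.5-fold higher.

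**Figure D1:**
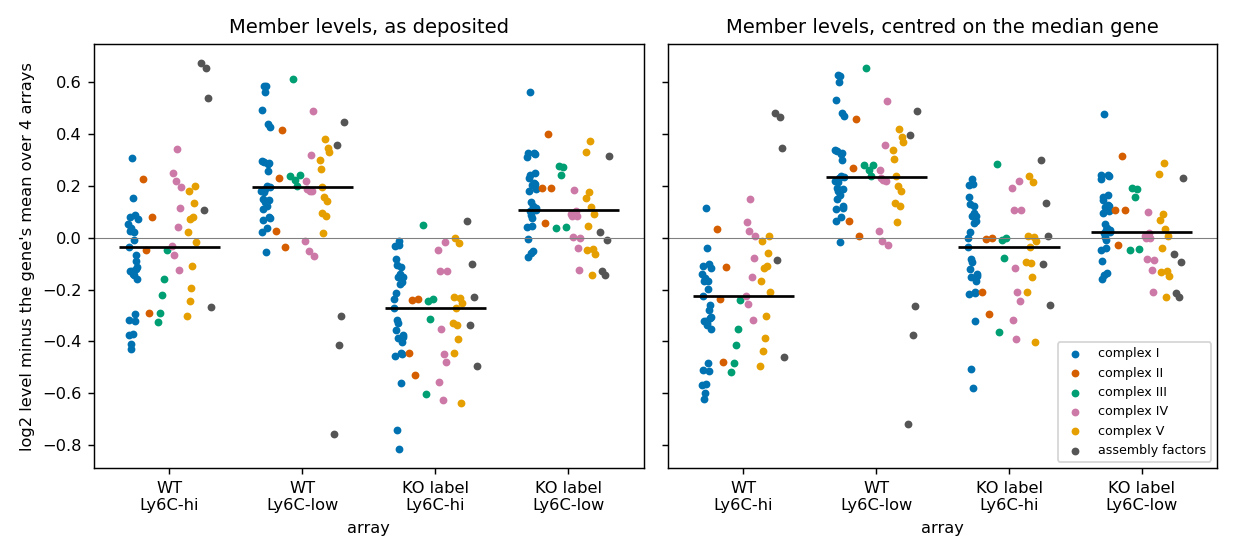
Log2 level of each of the 61 measured oxidative phosphorylation genes on each array, minus that gene's own mean over the 4 arrays, with values as deposited on the left and centred on the median gene on the right; colours give the complex and black lines the median of all members. Centred, WT Ly6C-low held the highest value of 41 genes and WT Ly6C-hi the lowest of 40, while as deposited the array labelled KO Ly6C-hi held the lowest of 47.

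Complex I, which oxidises NADH, gave the most members. All 27 were below 0 in WT when centred (25 as deposited), with a median of -0.47, and 10 were 1.5-fold lower (6 as deposited). Of all genes, 23.4% were 1.5-fold lower when centred and 15.1% as deposited. Ndufa5, an accessory subunit, was at 7.04 (Ly6C-hi) and 8.03 (Ly6C-low) in WT, then 6.70 and 8.01 for the KO label. Both Ly6C-hi arrays lay below both Ly6C-low arrays, and the centred hi minus low differences were -1.23 in WT, or 2.34-fold, and -0.98 under the KO label. Ndufa9, an accessory subunit that helps to join the arms of the complex, was at 7.29, 8.22, 7.33 and 7.80 in the same order of arrays, which holds wherever 4 levels are listed. It was lower in both Ly6C-hi arrays, with a difference of -1.17 in WT and a smaller one, -0.15, under the KO label. Ndufa4, first counted with complex I and now placed in complex IV, was at 8.20, 8.92, 8.52 and 8.87, with differences of -0.96 and -0.03. At the other end, Ndufa7 stood at 6.06, 5.89, 5.37 and 5.69 and reached the level of 6 only in WT Ly6C-hi. Its centred WT difference was -0.06, and as deposited it was 0.17.

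Complex II, succinate dehydrogenase, belongs to both the citric acid cycle and the electron transport chain, and its 4 subunits did not share a size of difference. Sdha, the subunit that carries the flavin and oxidises succinate, was at 7.21 (Ly6C-hi) and 7.01 (Ly6C-low) in WT, then 6.54 and 7.18 for the KO label. Its centred WT difference was -0.03 (0.20 as deposited), and under the KO label the Ly6C-hi array was lower by either scale (-0.32 centred, -0.64 as deposited). Sdhb, the iron-sulfur subunit, was at 6.66, 6.94, 6.47 and 6.77, with centred differences of -0.51 in WT and 0.03 under the KO label. The membrane anchors differed from each other. Sdhc was at 5.39, 6.10, 5.15 and 6.08, lower in both Ly6C-hi arrays, with centred differences of -0.94 in WT and -0.61 under the KO label. It reached log2 6 on the Ly6C-low arrays only, so it was measured through the fraction where it was high. Sdhd was at 6.06, 5.95, 5.74 and 6.17, with centred differences of -0.12 and -0.11 that overlap between the fractions.

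Complex III takes electrons from ubiquinol. All 5 measured members were below 0 in WT on both scales with a median of -0.68 when centred and -0.44 as deposited. At 1.5-fold, 4 were lower when centred and 1 as deposited, where 23.4% and 15.1% of all genes were. Uqcrb, which helps to bind ubiquinone, was at 9.64 (Ly6C-hi) and 10.55 (Ly6C-low) in WT, then 9.33 and 10.21 for the KO label. Both Ly6C-hi values lay below both Ly6C-low values, with differences of -1.14 in WT and -0.56 under the KO label when centred. Uqcr11, the small subunit whose promoter is shown above, was at 6.36, 6.92, 6.73 and 6.72. It was low in WT Ly6C-hi alone, with a difference of -0.80 in WT and 0.33 under the KO label (0.01 as deposited). The core proteins Uqcrc1 and Uqcrc2 had WT differences of -0.68 and -0.59, and Uqcrq had the smallest of the complex, -0.52.

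Complex IV reduces oxygen. By symbol, which leaves Ndufa4 in complex I, its WT median was -0.25 when centred and -0.02 as deposited, and 7 and 5 of its 9 measured members were below 0. With Ndufa4 added, the median was -0.37 when centred and -0.14 as deposited. Among the members with a Cox symbol, Cox7b alone was 1.5-fold lower in WT when centred, with 23.4% of all genes. None was as deposited, with 15.1% of all genes. Cox7b was at 8.40 (Ly6C-hi) and 8.78 (Ly6C-low) in WT, then 7.81 and 8.16 for the KO label. Cox6a1 was at 8.95, 8.68, 8.38 and 8.92, a WT difference of 0.04 when centred and 0.27 as deposited. Cox6b1, on the outer face of the complex where cytochrome c docks, was at 7.64, 7.48, 6.68 and 7.41 and lowest on the array labelled KO Ly6C-hi. Several subunits of this complex exist as a broadly expressed isoform and one known from particular tissues. In each such set only broadly expressed forms were measured: Cox4i1 (9.63, 9.65, 9.62 and 9.76), Cox6a1, Cox6b1, Cox7a2 (9.61, 9.89, 9.12 and 9.66) and Cox8a (7.77, 7.50, 7.44 and 7.57). Cox4i2, known from lung, Cox6a2, Cox7a1 and Cox8b, known from heart and skeletal muscle, and Cox6b2 and Cox8c, known from testis, were under log2 6 on all 4 arrays, as was Ndufa4l2, the hypoxia-induced relative of Ndufa4. Cox7c, a member of complex IV outside these sets, was also under log2 6 throughout (4.08, 4.09, 4.46 and 4.16). A level under the floor therefore does not show that a form was absent. Cox7a2l, which helps complexes III and IV to join, was at 6.26, 6.57, 6.37 and 6.35. Its centred hi minus low differences were -0.53 in WT and 0.34 under the KO label (0.02 as deposited).

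Complex V members were all below 0 in WT when centred (11 of 11, and 9 as deposited), with a median of -0.47. Atp5a1, the alpha subunit of the catalytic head, was at 8.73 (Ly6C-hi) and 9.33 (Ly6C-low) in WT, then 8.70 and 9.36 for the KO label. Both Ly6C-hi arrays lay below both Ly6C-low arrays, with differences of -0.84 in WT and -0.34 under the KO label when centred. Atp5g2, one of the genes for the membrane ring, was at 7.61, 8.05, 7.86 and 7.90, low in WT Ly6C-hi alone (-0.67 in WT, 0.28 under the KO label and -0.05 there as deposited). A second probe set of Atp5g2 gave -0.57 and 0.33. Atp5pb, of the peripheral stalk, was at 7.72, 8.07, 7.49 and 7.68, and Atp5mpl at 7.73, 7.88, 6.89 and 7.62. Atp5l was at 11.28, 11.28, 11.17 and 11.05, a spread of 0.23 as deposited, and its centred hi minus low differences were -0.23 in WT and 0.44 under the KO label. Atp5e, of the central stalk, had the smallest WT difference of the complex, -0.15.

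Of the 5 assembly factors measured, 3 were above 0 and 2 below it in WT on both scales, with a median of 0.61 that turned to -0.20 without the floor. Ndufaf7, a methyltransferase that acts on complex I, was at 6.28 (Ly6C-hi) and 4.85 (Ly6C-low) in WT, then 5.67 and 5.63 for the KO label, a centred WT difference of 1.20. Only WT Ly6C-hi reached log2 6, so this gene was measured through the array where it was high. Sdhaf1, which helps to put iron-sulfur clusters into Sdhb, was at 7.81, 6.74, 7.05 and 7.01 (0.84 in WT when centred). Sdhaf2, needed to attach the flavin to Sdha, was at 6.45, 5.61, 5.68 and 5.90 (0.61 in WT) and also passed only through WT Ly6C-hi. Sdhaf4, another factor for Sdha, went the other way, at 5.40, 6.11, 5.17 and 5.98 (centred differences of -0.95 for WT, -0.49 for the KO label). It reached log2 6 only on WT Ly6C-low, where it was highest.

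Under the KO label the median gap between the fractions was smaller than in WT when the arrays were centred and larger as deposited. Centred, the median was -0.10, against 0.02 for all genes, and 37 of 61 members lay below 0. Only Ndufa5 and Sdhc were 1.5-fold lower (3.28%, with 20.8% of all genes), and no member was 1.5-fold higher, with 20.6% of all genes. As deposited, the median was -0.42 (all genes -0.31), 56 lay below 0, 16 were 1.5-fold lower (26.2%, with 34.3% of all genes) and 0 higher, with 11.5% of all genes. Centred, Ndufa5 and Sdhc were the members 1.5-fold lower in Ly6C-hi in both genotypes (3.28%, with 12.6% of all genes). As deposited, Atp5a1, Ndufc2, Uqcrb and Sdhaf4 joined them, which made 6 (9.84%, with 11.4% of all genes). Sdhc reached log2 6 on the Ly6C-low arrays only and Sdhaf4 on WT Ly6C-low only, so both were measured through the fraction where they were high. Being lower in Ly6C-hi in both genotypes on both scales, by any amount, held for 30 of 61 members (49.2%) and 26.6% of all genes. When centred, Ndufa5, Ndufa9, Uqcrb and Ndufaf7 were the members that reached 2-fold in any of the 4 comparisons (6.56%, with 35.7% of all genes), and as deposited they were Ndufa5, Ndufaf7 and Sdhaf1 (4.92%, with 43.8% of all genes).

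**Figure D2:**
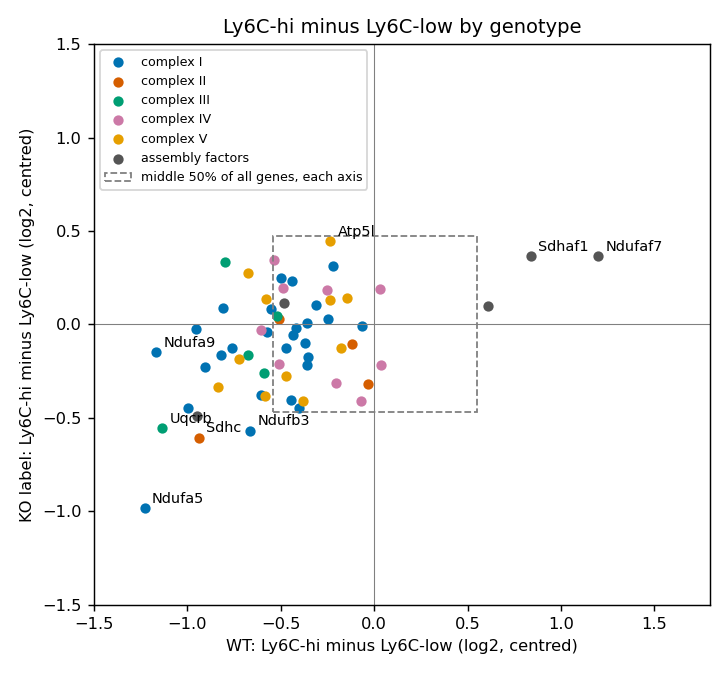
Centred Ly6C-hi minus Ly6C-low difference (log2) of each measured oxidative phosphorylation gene in WT (horizontal axis) and under the KO label (vertical axis), coloured by complex; the dashed box marks the middle 50% of all 5306 genes on each axis. Most subunits lie left of 0 in WT with a median of -0.49 and on both sides of 0 under the KO label with a median of -0.12, where the deposited scale gives -0.26 and -0.44.

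An additive limma model of genotype and fraction over all 4 arrays, which takes the genotype by fraction difference as noise and has 1 residual degree of freedom per gene, called 676 of 5306 genes for the fraction (12.7%), 324 higher (6.11%) and 352 lower (6.63%) in Ly6C-hi. Of the 61 members it called 1 (1.64%), Ndufa5, with an estimate of -1.11 ± 0.31 (SE) with a Benjamini-Hochberg adjusted p of 0.033. That call was lost on deposited values (limma adjusted p = 0.18), without the floor (0.55) and without the trend on level (0.061), and over all alternatives its adjusted p ran from 0.0053 to 0.55. With lowess scaling limma also called Uqcrb (-0.92 ± 0.25, adjusted p = 0.023). The estimates of 55 members were below 0, with standard errors from 0.31 to 0.45, and 3 had an unadjusted limma p under 0.05, as did 25.9% of all genes. For genotype, limma called 0 of 5306 genes (0%) and so no member. Unadjusted, 312 genes (5.88%) and 0 members were under 0.05, and the lowest adjusted p of a member was 0.87. In simulated arrays of the same layout and 5306 genes, limma recovered 100 of 100 genes given a 4-fold fraction difference and 35 of 100 given a 2-fold one. It made 6 false calls. The simulation gave every gene the same noise and no genotype by fraction difference, so these figures hold for that setting and not for the real arrays.

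In Ly6C-hi cells the position of the array labelled KO against WT depended on the scale. Centred, the median member was 0.19 higher under the KO label (all genes -0.04), and as deposited it was lower, at -0.24 (all genes -0.47). Centred, 5 members were 1.5-fold higher (8.2%, with 13.9% of all genes) and 0 lower, with 17.3% of all genes. As deposited, 0 were higher, with 5.2% of all genes, and 11 lower (18%, with 40.7% of all genes). The 5 were Ndufa4 (0.75), Ndufa11 (0.71) and Ndufb8 (0.61) of complex I, Uqcr11 (0.80) and Atp5g2 (0.67), of which Ndufb8 was named after its values were seen. All 5 were also above WT as deposited, by 0.18 to 0.38. Ndufb3, an accessory subunit of complex I, was lower under the KO label on both scales (6.92 (Ly6C-hi) and 7.35 (Ly6C-low) in WT, then 5.95 and 6.84 for the KO label), with centred differences of -0.54 in Ly6C-hi and -0.63 in Ly6C-low. Cox6b1 (-0.54) and Atp5mpl (-0.41) were the lowest of complexes IV and V.

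By complex, the centred Ly6C-hi medians of KO label minus WT were 0.27 for complex I, 0.15 for complex II, 0.27 for complex III, -0.06 for complex IV and 0.15 for complex V, and all 5 were below 0 as deposited (-0.16, -0.28, -0.15, -0.49 and -0.28). In Ly6C-low cells the array labelled KO was slightly below WT on both scales, with a median of -0.21 when centred (all genes -0.00) and -0.08 as deposited (all genes 0.12). Centred, 49 of 61 members lay below 0, and 39 as deposited. At 1.5-fold, 4 were lower (6.56%, with 7.73% of all genes) and 1 higher (1.64%, with 11.9% of all genes). As deposited, 1 was lower (1.64%, with 4.94%) and 1 higher (1.64%, with 16.7%). The 4 were Cox7b (-0.74), Ndufb3 (-0.63), Ndufa12 (-0.62) and the assembly factor Ndufaf8 (-0.61), and the 1 was Ndufaf7 (0.65). Ndufaf7 was under log2 6 on both Ly6C-low arrays (4.85 in WT, 5.63 under the KO label) and was measured through WT Ly6C-hi alone. With lowess, a floor of 7 or a mean level of 6 or more, 0 members were higher in Ly6C-low. Of all genes, 10.0%, 13.9% and 8.46% were. Ndufa12 was named after its values were seen. The value of Cox7b rests on its brightest probe set, since the mean of its probe sets gave 0.28. The other probe set was under log2 6 on every array, at 2.99 in WT Ly6C-low and 4.41 in Ly6C-low under the KO label. Centred, no member was 1.5-fold lower under the KO label in both fractions, with 2.19% of all genes, and none 1.5-fold higher in both, with 2.85%. As deposited, Cox7b was 1.5-fold lower in both (1.64% of members, with 2.36% of all genes).

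Markers of other cells also differed between the labels. In Ly6C-hi, KO label minus WT, 10 of 11 measured neutrophil markers were 1.5-fold lower (11 as deposited; medians -2.20 and -2.63). Of all genes, 17.3% were, and 40.7% as deposited. There 5 of 7 inflammatory monocyte markers were 1.5-fold higher (4 as deposited, medians 1.20 and 0.77), with 13.9% and 5.2% of all genes. In Ly6C-low, 14 of 15 sinusoidal endothelial markers were 1.5-fold higher under the KO label (median 1.38, and 15 of 15 as deposited), with 11.9% and 16.7% of all genes. There 7 of 11 neutrophil and 5 of 6 Kupffer cell markers were 1.5-fold lower (6 and 4 as deposited), with 7.73% and 4.94% of all genes. Their medians were -0.72 and -0.89, or -0.60 and -0.77 as deposited. The part of these cells in the genotype differences of the oxidative phosphorylation genes was not tested.

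**Figure D3:**
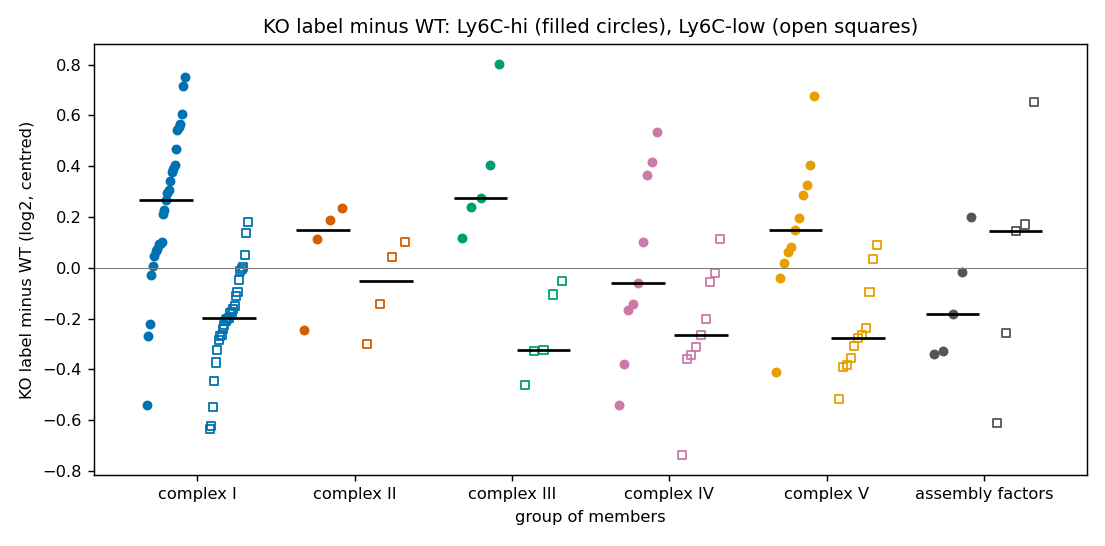
Centred difference KO label minus WT (log2) of each measured oxidative phosphorylation gene by complex, in Ly6C-hi (filled circles) and Ly6C-low (open squares), with black lines at the medians. In complexes I, II, III and V the Ly6C-hi median lies above 0 and the Ly6C-low median below it, whereas as deposited the Ly6C-hi medians of all 5 complexes lie below 0.

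The comparisons share arrays, so a low value on WT Ly6C-hi or a high one on WT Ly6C-low enters several of them. Centred, WT Ly6C-low held the highest of the 4 values in 41 members (67.2%, with 18.9% of all genes) and WT Ly6C-hi the lowest in 40 (65.6%, with 30.8%). As deposited, WT Ly6C-low was highest in 34 (55.7%, with 14.0%), and the array labelled KO Ly6C-hi was lowest in 47 (77.0%, with 46.6%). The KO label minus WT difference of hi minus low had a median of 0.38 when centred and -0.18 as deposited, with -0.11 and -0.67 for all genes.

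Mitochondrial DNA encodes the core subunits that the nuclear ones surround, and 10 of these were named and measured: ND1 to ND6, ND4L, COX1, COX3 and CYTB. They are cut from shared transcripts, so they are not independent of each other, and several lay near the top of the array's scale. In WT all 10 were lower in Ly6C-hi, with a median of -0.88 (-0.65 as deposited), and 9 were 1.5-fold lower (6 as deposited). Of all genes, 23.4% were 1.5-fold lower there when centred and 15.1% as deposited. ND2, a complex I core subunit, was at 10.87 (Ly6C-hi) and 11.87 (Ly6C-low) in WT, then 11.06 and 11.42 for the KO label. CYTB, the cytochrome b of complex III, was at 11.75, 12.40, 12.03 and 12.12, and COX1, the catalytic subunit of complex IV, at 12.49, 12.90, 12.72 and 12.64. As deposited, WT Ly6C-hi was the lowest array and WT Ly6C-low the highest for all 3. In Ly6C-hi the array labelled KO was above WT for all 10 on both scales. The median was 0.69 when centred, all 10 at 1.5-fold (with 13.9% of all genes), and 0.26 as deposited, none at 1.5-fold (with 5.2%). In Ly6C-low all 10 were below WT, with a median of -0.40 (-0.27 as deposited). On either scale 2 were 1.5-fold lower, with 7.73% of all genes when centred and 4.94% as deposited. Between the fractions under the KO label the median was 0.34 when centred, 0.02 as deposited, -0.03 with lowess and -0.04 without a floor, so it has no settled sign. Limma called none of the 10.

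Other mitochondrial lists stood beside the subunits without a limma call for fraction or genotype in any of them. Of 24 measured mitochondrial ribosomal proteins, which translate the mitochondrial messages, 12 were 1.5-fold lower and 0 higher in WT Ly6C-hi when centred, where 23.4% and 23.8% of all genes were, and 2 were lower and 0 higher as deposited, where 15.1% and 32.6% of all genes were; the same shares of all genes stand behind the WT counts of the other lists. Their WT median was -0.58 (-0.35 as deposited), and under the KO label the median was -0.10 (-0.42). The 6 electron carrier and ubiquinone genes measured had a WT median of -0.46 (-0.23 as deposited), with 3 lower and 1 higher when centred but 0 lower and 2 higher as deposited. Cytochrome c (Cycs) was at 8.90, 9.27, 8.73 and 9.10, lower in both Ly6C-hi arrays. Gpd2, which feeds electrons from glycerol phosphate, was the higher one when centred, at 6.10, 5.06, 5.49 and 5.03, and was measured through WT Ly6C-hi alone, where it was high. The 9 carriers, pores and import genes had a WT median of -0.45 (-0.22 as deposited), with 3 lower and 0 higher on either scale, among them the ADP/ATP carrier Slc25a4 (5.78, 6.70, 5.69 and 6.54), which reached log2 6 in Ly6C-low alone. For 11 enzymes of the citric acid cycle and pyruvate dehydrogenase the WT median was -0.33 (-0.10 as deposited), with 4 lower and 0 higher when centred but 0 lower and 1 higher as deposited. The 11 assembly factors outside the symbol rule had a WT median of -0.19 (0.04 as deposited), with 3 lower and 0 higher when centred and 1 lower and 1 higher as deposited. The 6 regulators measured had a WT median of 0.44 (0.67 as deposited), with 2 higher (4 as deposited) and 0 lower. The 2 were Gabpb1, a partner of the ETS factor GABP, at 6.30, 4.52, 4.33 and 4.58, and Nrf1 at 6.72, 5.86, 5.58 and 6.01. Both were highest on WT Ly6C-hi, which alone brought Gabpb1 to log2 6, and Tfam and Ppargc1b were under log2 6 on every array.

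**Figure D4:**
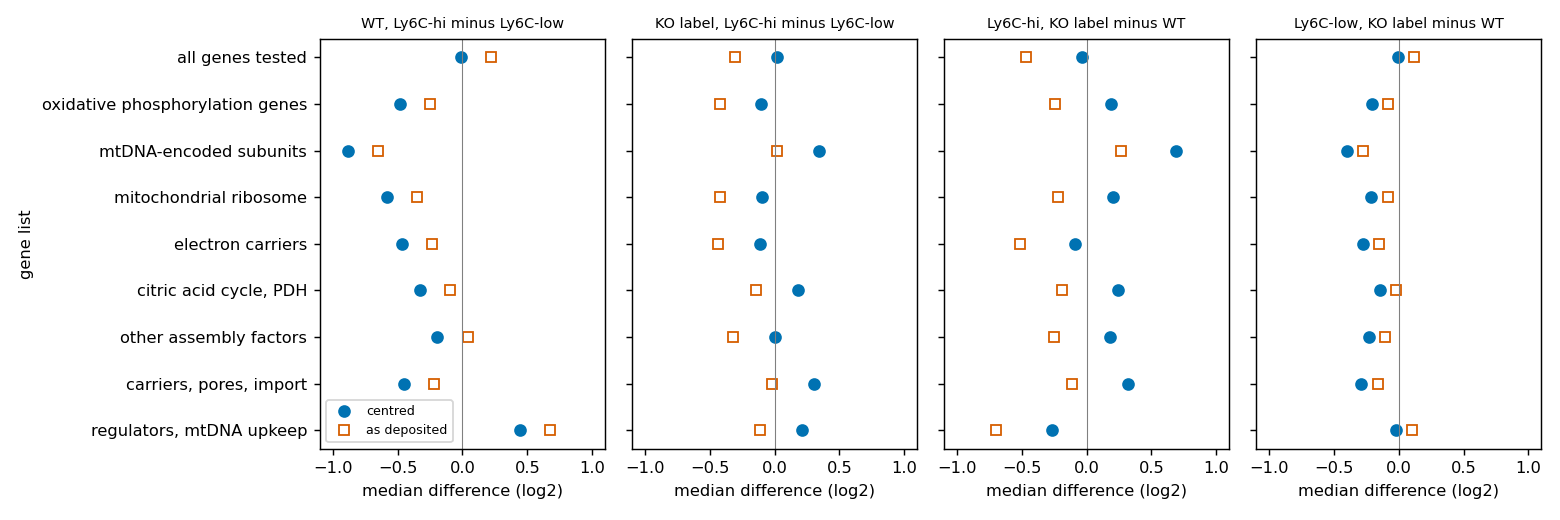
Median log2 difference of all genes, of the nuclear oxidative phosphorylation genes and of 7 other mitochondrial gene lists in each of the 4 comparisons, centred (filled circles) and as deposited (open squares). In WT the oxidative phosphorylation genes lie at -0.48 (-0.25 as deposited) and the mtDNA-encoded subunits at -0.88 (-0.65), and in Ly6C-hi, KO label minus WT, the oxidative phosphorylation median changes side of 0 between the scales (0.19 and -0.24).

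The sorted fractions also differed in transcripts of other cells, and each array is a bulk sample, in which fewer cells of a type and less RNA per cell cannot be told apart. The 15 markers of sinusoidal endothelium were without exception 1.5-fold lower in Ly6C-hi in both genotypes, and the log2 of their summed level was 9.14 (Ly6C-hi) and 12.36 (Ly6C-low) in WT, then 8.51 and 13.73 for the KO label. Of 15 neutrophil markers 11 were measured, and each was 1.5-fold higher in Ly6C-hi in both genotypes, with summed levels of 13.55, 9.98, 11.51 and 9.36. The neutrophil granule genes Elane and Mpo were under log2 6 on all arrays. All 10 measured hepatocyte markers of 12 were 1.5-fold lower in WT Ly6C-hi, and 6 of them under the KO label, with summed levels of 10.80, 11.79, 10.46 and 11.66. Of 6 measured Kupffer cell markers, 4 were lower in WT Ly6C-hi and 5 under the KO label, with summed levels of 9.35, 10.35, 8.65 and 9.74. The 7 inflammatory monocyte markers had summed levels of 10.52, 9.28, 11.29 and 9.27, and the 7 macrophage markers of 11.80, 11.73, 11.55 and 11.50. All 3 measured stellate cell and fibroblast markers of 7 were lower in Ly6C-hi in both genotypes, with summed levels of 7.38, 9.07, 7.51 and 8.52. No T cell marker of 3 was measured, and 1 of 3 B cell and 1 of 4 NK cell markers were. The counts in this paragraph are centred. Of all genes, 23.4% were 1.5-fold lower and 23.8% higher in WT Ly6C-hi, and 20.8% and 20.6% under the KO label. Neutrophil, endothelial and hepatocyte transcripts thus moved with the fraction beside every hi minus low value above, and the part of these cells in the oxidative phosphorylation differences was not tested.

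For the promoter motifs, medians of the members with and without a match are given. The 13 members with an NRF1 motif had a centred WT median of -0.55 and the others -0.45, the 17 with an ETS site -0.24 and the others -0.53, the 10 with a YY1 core -0.45 and the others -0.50, and the 5 with the estrogen-related receptor motif -0.18 and the others -0.49. In Ly6C-hi, KO label minus WT, the centred medians with and without a match were 0.37 and 0.09 for NRF1, 0.10 and 0.21 for ETS, 0.03 and 0.21 for YY1 and 0.11 and 0.20 for the estrogen-related receptor motif, and as deposited all of these are shifted by the same amount to below 0. Several windows hold more than 1 motif, and these medians are descriptions without a test.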

How the data were processed

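The authors deposited log2 values made by RMA in Expression Console at gene level, per the labels; RMA is also in the submitters' processing notes. Per the labels, 5 ng of total RNA, isolated with TRIzol, was amplified and labelled with the WT Pico kit. Of software versions, the array's annotation build and any pooling of mice, nothing is given in the sources used here.

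Of 41345 probe sets, 23521 had 1 symbol, 1814 several and 16010 none; only the first were used, which left out 10 probe sets that hold a symbol of the rule beside another. The brightest probe set stood for each of 22180 genes (1082 had several, 10 of them members). All 91 members matched the RefSeq table of GRCm38.p6. Each array was centred by the median over 5306 genes of its deviation from the gene mean (in WT, 0.18 for Ly6C-hi and -0.05 for Ly6C-low; under the KO label, -0.25 and 0.07). RMA includes quantile normalisation of the probe intensities, and values near its floor are compressed, which understates folds of dim genes.

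The additive fit used limma 3.58.1 in R 4.3.3 (lmFit and eBayes with trend, prior degrees of freedom 12.1), with Benjamini-Hochberg adjustment over 5306 genes and a threshold of 0.05, checked on simulated arrays. Its p-values measure only the spread between these 4 arrays, whose number limits precision. Genes named are the extremes of each complex in each comparison, those 1.5-fold alike in both genotypes or fractions, limma calls, the complex II subunits and the isoform sets; Ndufa9, Ndufa12, Ndufb5, Ndufb8, Ndufc2, Uqcrc1, Atp5k and Sdhaf1 fall outside this rule and were named after their values were seen. The members, lists and rules were chosen with earlier results of these data known. Alternatives were deposited values, quantile and lowess scaling, a floor of 7 or none, the mean of probe sets, subunits alone, 2-fold, no trend and, added after seeing the data, a mean level of 6 or more and Ndufa4 counted in complex IV.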

Additional observations from a re-analysis of the deposited data

Results flagged for a closer look

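The following medians had opposite signs under the same contrast in 2 groups; with 1 array per group the differences were not tested, and no group was large enough for a check of outlying samples. The centred Ly6C-hi minus Ly6C-low median of the 10 subunits encoded in mitochondrial DNA was -0.88 in WT but 0.34 for the KO label; the second changed sign with lowess and without a floor. The centred KO label minus WT median of the 61 oxidative phosphorylation genes was 0.19 in the Ly6C-hi fraction but -0.21 in Ly6C-low; as deposited both were below 0 (-0.24 and -0.08). For the mtDNA-encoded subunits the same medians were 0.69 in the Ly6C-hi fraction but -0.40 in Ly6C-low; they kept opposite signs as deposited (0.26 and -0.27). The 2 contrasts use the same 4 arrays, so these are 2 views of 1 pattern.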

How the results depend on the processing

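No paired analysis was possible because each group has 1 array and the labels carry no replicate numbers; leaving out an array would leave a group empty. The scale and the floor decide the sign of KO label minus WT in Ly6C-hi, and the WT fraction median stayed below 0 under every alternative run. Dropping the floor changed both the members (91 in place of 61) and the genes used for centring (22180 in place of 5306). For complex II, with 4 of 4 members measured in both settings, only the centring genes changed. Its Ly6C-hi median of KO label minus WT went from 0.15 to -0.36, where the deposited values gave -0.28. For the members as a whole the 2 changes were not separated.

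With values as deposited, the member medians were -0.25 for WT hi minus low, -0.42 for KO label hi minus low, -0.24 (sign turned) for KO label minus WT in Ly6C-hi, -0.083 in Ly6C-low and -0.18 (sign turned) for the difference of differences. The counts were 10 lower in WT and 16 lower under the KO label, with 15.1% and 34.3% of all genes. For KO label minus WT in Ly6C-hi, 0 were higher and 11 lower, with 5.2% and 40.7% of all genes. In Ly6C-low 1 was lower, with 4.94% of all genes. Limma called 0 members for the fraction, with 6.77% of all genes. For complexes I, II, III, IV, V and the assembly factors, in that order, the WT hi minus low medians were -0.24, -0.082, -0.44, -0.019, -0.24 and 0.84. Under the KO label they were -0.42, -0.53, -0.49, -0.35, -0.45 and -0.21, the last with its sign turned. KO label minus WT gave -0.16, -0.28, -0.15, -0.49, -0.28 and -0.61 in Ly6C-hi, with the sign turned for complexes I, II, III and V, while the Ly6C-low values were -0.072, 0.075, -0.20, -0.14, -0.15 and 0.27.

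Without the floor, the member medians were -0.16, -0.39, -0.27 (sign turned), -0.046 and -0.17 (sign turned) in the same order. Of the 91 members, 10 were lower in WT, with 9.16% of all genes. Under the KO label 2 were higher and 28 lower, with 9.56% and 15.3% of all genes. In Ly6C-hi 1 was higher and 16 lower, with 8.56% and 16.5% of all genes. In Ly6C-low 0 were lower, with 4.40% of all genes. Limma called 0 members for the fraction, with 1.97% of all genes. The WT medians by complex were -0.17, -0.022, -0.30, 0.024 (sign turned), -0.088 and -0.20 (sign turned). Under the KO label they were -0.45, -0.59 and -0.34 for complexes I to III, -0.25 for complex V and -0.27 (sign turned) for the assembly factors. In Ly6C-hi, signs turned for complexes I (-0.21), II (-0.36), III (-0.24) and V (-0.31), and the assembly factors were at -0.42. In Ly6C-low, complexes I to V were at -0.025, 0.11, -0.16, -0.15 and -0.10. The mtDNA-encoded KO label hi minus low median was -0.0395 (sign turned).

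Lowess gave a difference of differences of 0.27 and 5 members lower under the KO label, with 19.9% of all genes. In Ly6C-low it gave 0 higher, with 10.0% of all genes. It gave 2 limma calls for the fraction, with 15.4% of all genes called. The mtDNA-encoded KO label hi minus low median was -0.0255 (sign turned) with this scaling. Lowess put complex IV at -0.23 under the KO label, -0.21 in Ly6C-hi and -0.16 for Ly6C-low, with complex V at 0.046 in Ly6C-hi and -0.10 in Ly6C-low. Quantile normalisation put complex I at 0.37 and complex II at -0.0245 (sign turned) in Ly6C-hi, and complex V at -0.15 in Ly6C-low. With a floor of 7 there was 1 member higher in WT, with 27.8% of all genes. In Ly6C-low 0 were higher and 2 lower, with 13.9% and 7.71% of all genes. Complex I was then at -0.62 in WT, complex II at -0.0785 in WT, -0.36 under the KO label, -0.19 (sign turned) in Ly6C-hi and 0.087 in Ly6C-low. Complex III was at -0.30 under the KO label and -0.061 in Ly6C-low, complex IV at -0.16 under the KO label, and the assembly factors at 0.79 in WT and 0.33 under the KO label. With the mean of probe sets, complexes IV and V were at -0.22 and -0.0019 under the KO label, the assembly factors at 0.36 in WT, -0.014 in Ly6C-hi and -0.11 (sign turned) in Ly6C-low, and Cox7b at 0.28 (sign turned) in Ly6C-low. With a mean level of 6 or more, complex II was at -0.0092 (sign turned) in Ly6C-hi. The assembly factors were then at 0.17 in WT and -0.21 (sign turned) in Ly6C-low. With that rule 1 member was higher in WT and 0 in Ly6C-low, with 21.5% and 8.46% of all genes. Subunits alone gave 0 higher in WT and in Ly6C-low, with 23.8% and 11.9% of all genes. At 2-fold, 1 member was higher and 3 lower in WT and 0 in the other comparisons. The shares of all genes at 2-fold in each comparison were not computed. Without the trend limma called 0 for the fraction, with 12.2% of all genes. With Ndufa4 counted in complex IV, also added after seeing the data, the WT median of complex IV was -0.37. Of the values of single named genes under the alternatives, 755 kept their sign and side of 1.5-fold, 57 passed it only there, 27 no longer did and 105 changed sign, 79 of them as deposited or without the floor and all but 1 from under 1.5-fold. Signal near background limits the dim members, of which 10 reached log2 6 on some arrays only.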
